A study of Mus musculus with 12 samples.

Results

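The MHC class I and class II antigen presentation genes were followed as a set of 35 genes, 21 of class I and 14 of class II, in mammary tumours of MMTV-Wnt1 mice with and without the retinoic acid receptor gene Rarb. Members were found on the arrays as the non-control probes whose transcript accession names one of the 35 genes, among 20660 genes named in this way. A probe was found for 34 of them, and 30 (19 of class I, 11 of class II) were bright enough to be tested among 13275 genes. All mice were of the FVB strain and carried the MMTV-Wnt1 transgene, in which a viral promoter active in mammary epithelium drives the growth factor gene Wnt1. The 4 groups, each of 3 arrays, were Rarb -/- (KO) stroma, Rarb +/+ (WT) stroma, Rarb -/- epithelium and Rarb +/+ epithelium. Going by the genotype and number that their titles share, both compartments were cut by laser from the same 3 KO tumours (numbers 1, 3 and 4) and the same 3 WT tumours (numbers 1, 2 and 3). The labels give no age, and whether the tumours were taken from different mice is not stated there either; a p-value then covers only the variation among the samples at hand, part of which may be technical.

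Class I molecules pair a heavy chain with beta-2 microglobulin and show peptides made in the cell by the proteasome to CD8 T cells. Those peptides are carried into the endoplasmic reticulum by the TAP transporter and loaded there with the help of tapasin and chaperones. Class II molecules, which macrophages, dendritic cells and B cells make most, travel with the invariant chain to endosomes, where proteases remove it and H2-DM exchanges its last fragment for a peptide shown to CD4 T cells. Interferon gamma raises both sets through the transactivators Nlrc5 (class I) and Ciita (class II), which act on shared promoter boxes bound by RFX, CREB-like factors and NF-Y.

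Those boxes are shown for members of both classes whose levels are described further on, as windows of 300 bases (250 before and 50 after the annotated start) from RefSeq on GRCm38.p6, the assembly of a strain other than FVB. Such a window was held for 30 of the 35 members. Capitals mark, on either strand, CCAAT (the NF-Y box, read as ATTGG in reverse), TGACG (the core of CREB sites), TAGCAAC (part of the class II X box), GAAANNGAA (an interferon response motif) and GGGGATTCC (a kappa B motif). The windows are H2-K1 at chr17:34000298-34000597 (minus strand), H2-D1 at chr17:35262844-35263143, H2-Q7 at chr17:35438905-35439204, H2-M3 at chr17:37269984-37270283, B2m at chr2:122147437-122147736, H2-Aa at chr17:34287774-34288073 (minus strand) and H2-Eb1 at chr17:34305617-34305916 (the others on the plus strand), each printed 5′ to 3′ on its gene's strand.
H2-K1: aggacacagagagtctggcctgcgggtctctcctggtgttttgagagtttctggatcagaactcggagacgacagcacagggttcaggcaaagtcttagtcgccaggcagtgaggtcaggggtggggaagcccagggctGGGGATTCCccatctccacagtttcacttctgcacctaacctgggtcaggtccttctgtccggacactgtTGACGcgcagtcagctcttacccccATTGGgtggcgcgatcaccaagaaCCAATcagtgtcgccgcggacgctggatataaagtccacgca
H2-D1: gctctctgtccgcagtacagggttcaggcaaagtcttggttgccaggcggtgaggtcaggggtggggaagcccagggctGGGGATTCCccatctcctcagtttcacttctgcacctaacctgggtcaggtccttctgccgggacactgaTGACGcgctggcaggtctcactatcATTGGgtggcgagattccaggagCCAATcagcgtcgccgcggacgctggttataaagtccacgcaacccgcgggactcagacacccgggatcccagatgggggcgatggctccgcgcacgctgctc
H2-Q7: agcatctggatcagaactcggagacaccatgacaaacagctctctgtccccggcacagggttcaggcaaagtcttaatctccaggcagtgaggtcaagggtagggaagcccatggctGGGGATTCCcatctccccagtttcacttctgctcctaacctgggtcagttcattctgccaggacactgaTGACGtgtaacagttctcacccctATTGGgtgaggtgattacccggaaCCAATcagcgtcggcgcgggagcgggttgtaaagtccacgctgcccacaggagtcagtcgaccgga
H2-M3: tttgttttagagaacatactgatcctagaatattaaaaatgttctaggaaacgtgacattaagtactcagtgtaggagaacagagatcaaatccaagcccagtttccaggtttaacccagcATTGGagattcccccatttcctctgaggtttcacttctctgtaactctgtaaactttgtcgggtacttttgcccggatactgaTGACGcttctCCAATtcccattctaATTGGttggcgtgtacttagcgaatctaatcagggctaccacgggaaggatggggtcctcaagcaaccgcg
B2m: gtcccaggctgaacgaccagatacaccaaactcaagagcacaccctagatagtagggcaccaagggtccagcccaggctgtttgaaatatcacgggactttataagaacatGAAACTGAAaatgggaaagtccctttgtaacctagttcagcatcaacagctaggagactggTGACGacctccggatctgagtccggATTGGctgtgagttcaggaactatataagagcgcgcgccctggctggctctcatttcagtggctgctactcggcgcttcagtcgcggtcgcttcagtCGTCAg
H2-Aa: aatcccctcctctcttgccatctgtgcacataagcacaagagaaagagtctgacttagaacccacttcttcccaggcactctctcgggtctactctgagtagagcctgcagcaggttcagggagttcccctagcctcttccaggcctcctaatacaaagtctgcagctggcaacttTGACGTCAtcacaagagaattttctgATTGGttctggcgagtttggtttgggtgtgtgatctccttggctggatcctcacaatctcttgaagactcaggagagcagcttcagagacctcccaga
H2-Eb1: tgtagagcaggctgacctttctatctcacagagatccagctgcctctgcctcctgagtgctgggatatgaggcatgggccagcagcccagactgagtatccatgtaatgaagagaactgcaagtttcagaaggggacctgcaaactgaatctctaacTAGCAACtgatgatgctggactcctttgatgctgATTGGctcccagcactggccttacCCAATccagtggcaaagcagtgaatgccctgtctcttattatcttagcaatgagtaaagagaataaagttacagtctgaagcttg

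In H2-K1, H2-D1 and H2-Q7 the same 4 matches stood in the same order: the kappa B motif, the CREB core, a reverse CCAAT and a forward CCAAT. The CREB core was followed by the reverse CCAAT with 24 to 26 bases between their first bases in 6 members (H2-K1, H2-D1, H2-Q7, H2-M3, B2m and H2-Aa), a spacing found in 0.12% of all 32851 windows and chosen for the search after it was seen in members. In H2-Eb1 it was the X box match, at -93 from the start, that stood before a reverse CCAAT at -59. GGGGATTCC was held by 4 of the 30 members (H2-K1, H2-D1, H2-Q6 and H2-Q7) and by 0.25% of all windows. GAAANNGAA was held by 5 members and 8.56% of windows, TAGCAAC by 2 and 3.66%, TGACG by 13 and 20.8%, and CCAAT by 23 and 37.4%. In H2-Aa the TGACG matches of the 2 strands overlap, and the windows of Tap1 and Psmb9 overlap each other. A match is a run of letters and not a measured binding site. By chromosome, 14 of the class I and 8 of the class II members lie on chromosome 17, which holds the H2 complex.

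Each value is a log2 ratio of sample (Cy3) over a common mouse reference RNA (Cy5), so only differences between samples are compared, not levels of different genes. Values of a group are given in the order of its tumour numbers. Between 36.0% and 46.3% of the probes of an array had Cy3 well above background, with 0 saturated probes, and precision is limited by how few arrays there are. WT epithelium 3 stood apart with 211 nonuniform spots, against 3 to 16 on the other 11 arrays, and such spots were left out. The probe of Rarb that was above background on all 12 arrays stood at 0.57 to 2.09 in KO stroma, against -0.29 to 1.37 in WT stroma, and at -1.13 to 1.36 in KO epithelium, against -0.76 to 0.85 in WT epithelium. It was not lower in KO, and since the sources do not say whether it lies in the deleted part, it does not check the genotype. All epithelial arrays lie on 1 slide and all stromal arrays on another, so compartment and slide cannot be told apart, and within each slide KO and WT lie in different rows, so genotype and row cannot be told apart.

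Markers of other cells set some libraries apart. The 9 epithelial markers kept of 10, keratins and claudins among them, had a median per array of 2.65 to 3.80 in KO stroma and 5.09 to 6.32 in WT stroma, against 3.48 to 7.16 in KO epithelium and 2.37 to 7.21 in WT epithelium. Their summed Cy3 signal (intensity) was 99697 to 135327 in KO stroma and 264677 to 320010 in WT stroma, against 305359 to 479827 in KO epithelium and 191649 to 381202 in WT epithelium. By both measures WT stroma overlapped the epithelial samples and KO stroma lay below WT stroma. KO stroma overlapped the epithelial samples by the median, but lay below all of them by the summed signal. WT stroma of tumour 2 also stood apart in lymphocyte markers: Cd79b of B cells was at 2.12 there, against -3.53 to -1.32 in the other 5 stromal samples, and Cd3d of T cells at 7.23, against at most 2.70 in those 5. Of the other B cell genes, Blk was above background on no array, and Cd79a, Ms4a1 and Pax5 on 1 WT stroma array and no KO stroma array. In WT tumour 2 the fibroblast markers had a higher median in epithelium (1.39) than in stroma (-0.17), against the compartment labels.

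The group means of both classes were higher in stroma than in epithelium. The median of the 19 class I members was 0.54, 0.64 and 0.83 in KO stroma and 0.77, 1.28 and 0.20 in WT stroma, against 0.31, -0.10 and -0.16 in KO epithelium and 0.66, 0.15 and -0.62 in WT epithelium. That of the 11 class II members was 2.27, 1.75 and 1.85 in KO stroma and 0.95, 1.89 and 1.28 in WT stroma, against 0.26, 0.40 and -0.31 in KO epithelium and 0.95, 0.31 and -0.34 in WT epithelium. All 3 KO stroma samples lay above all epithelial samples for class II, and all but WT stroma 1 did so among WT stroma samples, where it stood level with WT epithelium 1. For class I the groups overlapped through WT epithelium 1 and WT stroma 3.

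**Figure D1:**
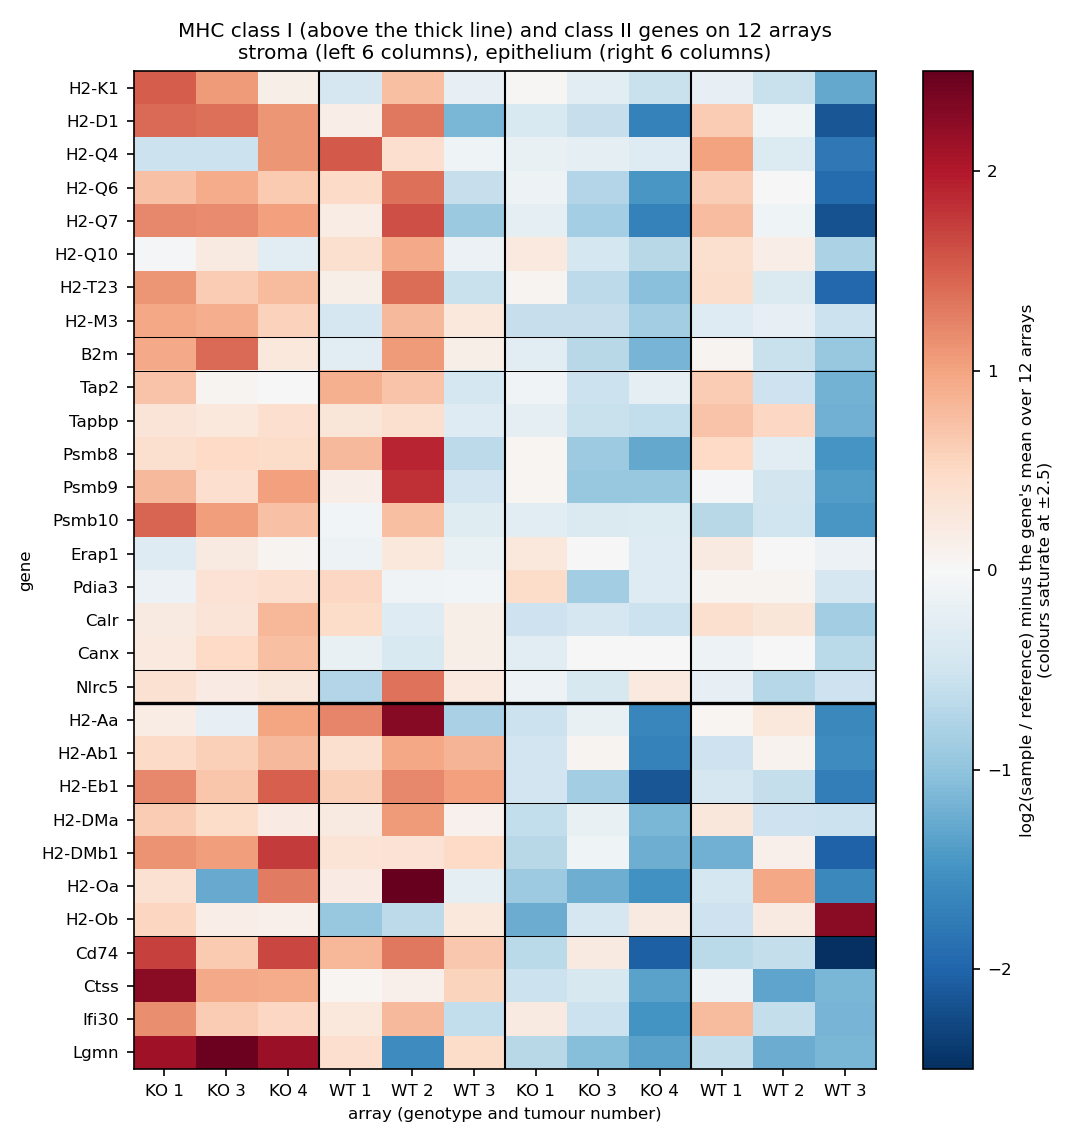
The 30 tested members (rows) on the 12 arrays (columns: KO stroma, WT stroma, KO epithelium, WT epithelium), coloured by log2(sample/reference) minus the gene's own mean over the 12 arrays. Most rows are redder in the 6 stroma columns on the left, Lgmn most of all in KO stroma, and H2-Oa stands out in WT stroma 2.

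The question of the first comparison was which members differ between the stroma and the epithelium of the same tumour. Over the 6 tumours 18 of the 30 members were higher in stroma and 0 lower (a limma fit with the tumour as block, Benjamini-Hochberg adjusted p under 0.05 over all genes), where 8.41% of all genes tested were higher and 6.7% lower. The 18 were 11 of 19 class I and 7 of 11 class II members. The median log2 difference was 0.96 for class I and 1.58 for class II, against -0.03 over all genes. In captured tissue, more cells of a type and more RNA per cell cannot be told apart. Every member tested was above background on at least 9 of the 12 arrays, so none entered the test through its stromal samples alone.

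Among class I heavy chains, 6 of 8 tested were higher in stroma. H2-D1, a classical heavy chain, stood at 3.28, 3.23 and 2.97 in KO stroma and 2.02, 3.19 and 0.71 in WT stroma, against 1.47, 1.28 and 0.18 in KO epithelium and 2.499, 1.76 and -0.27 in WT epithelium. All 3 KO stroma values lay above all epithelial values, while in WT tumour 1 the epithelium was the higher compartment. The difference was 1.41 ± 0.27 (SE, adjusted p = 0.0202), higher in stroma in 5 of 6 tumours. H2-K1, the other classical heavy chain of this set, stood at 3.01, 2.55 and 1.63 in KO stroma and 1.07, 2.24 and 1.29 in WT stroma, against 1.51, 1.20 and 0.93 in KO epithelium and 1.27, 0.92 and 0.20 in WT epithelium, again with WT tumour 1 as the exception. It was higher by 0.96 ± 0.23 (SE, adjusted p = 0.0368).

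Of the 6 nonclassical heavy chains tested, 4 were also higher. H2-M3, which shows N-formylated peptides of bacteria and mitochondria, stood at -0.06, -0.11 and -0.44 in KO stroma and -1.44, -0.21 and -0.76 in WT stroma, against -1.59, -1.59 and -1.88 in KO epithelium and -1.33, -1.22 and -1.55 in WT epithelium. Its 3 KO stroma values lay above all 6 epithelial values and its difference was 1.02 ± 0.16 (SE, adjusted p = 0.0117). The Cy5 signal of its probe differed by -0.42 (log2) between stromal and epithelial arrays, and with Cy3 alone the difference was 0.60 (adjusted p = 0.0344). H2-T23, the Qa-1 heavy chain seen by NK cell receptors, stood at -0.54, -0.9995 and -0.84 in KO stroma and -1.49, -0.24 and -2.19 in WT stroma, against -1.57, -2.30 and -2.69 in KO epithelium and -1.20, -1.99 and -3.60 in WT epithelium. WT epithelium 3 was the lowest sample for it, and it was higher in stroma by 1.17 ± 0.28 (SE, adjusted p = 0.0372). H2-Q7, of the Qa-2 family, stood at 2.90, 2.88 and 2.72 in KO stroma and 1.89, 3.30 and 0.76 in WT stroma, against 1.47, 0.84 and 0.00 in KO epithelium and 2.46, 1.58 and -0.48 in WT epithelium. H2-Q6 of the same family stood at 1.78, 1.98 and 1.71 in KO stroma and 1.54, 2.43 and 0.48 in WT stroma, against 0.92, 0.32 and -0.41 in KO epithelium and 1.67, 1.07 and -0.87 in WT epithelium. For both, KO stroma lay above KO epithelium throughout and WT tumour 1 had the higher value in epithelium. The differences of this pair were 1.43 ± 0.32 (SE, adjusted p = 0.0316) for H2-Q7 and 1.20 ± 0.26 (SE, adjusted p = 0.0276) for H2-Q6. Not past the threshold were H2-Q4, at 0.62 ± 0.28 (SE, adjusted p = 0.187), and H2-Q10, a secreted heavy chain known from liver, at 0.37 ± 0.17 (SE, adjusted p = 0.201).

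Most of these heavy chain genes are close copies of each other, and their values may not be independent. Over the 12 arrays the probes of H2-D1 and H2-Q7, each taken relative to its own mean, differed by at most 0.28, where their values spanned 3.55 and 3.79. Those of H2-Q6 and H2-T23 differed by at most 0.41. Other pairs differed by more, up to 2.06 for H2-K1 and H2-Q4. Whether a probe binds the RNA of another copy was not tested, nor was the match of the probes to the H2 alleles of FVB.

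The class I light chain B2m stood at -0.57, -0.10 and -1.25 in KO stroma and -1.80, -0.45 and -1.37 in WT stroma, against -1.78, -2.22 and -2.69 in KO epithelium and -1.45, -2.07 and -2.47 in WT epithelium. KO stroma lay above all epithelial samples, and in WT tumour 1 alone the epithelium was higher. It was higher in stroma by 1.19 ± 0.27 (SE, adjusted p = 0.0326). Its Cy5 signal differed by -0.34 between stromal and epithelial arrays, and with Cy3 alone the difference was 0.85 (adjusted p = 0.0786), which did not pass. Over the 30 members this Cy5 difference ran from -0.42 (H2-M3) to 0.55 (H2-Ob).

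Of the 9 tested genes of class I peptide supply and loading, 4 were higher in stroma, among them all 3 catalytic subunits of the immunoproteasome, which replace the standard subunits and change the peptides that are cut. Psmb10 stood at 1.64, 1.22 and 0.91 in KO stroma and 0.10, 0.94 and -0.13 in WT stroma, against -0.08, -0.19 and -0.16 in KO epithelium and -0.51, -0.33 and -1.28 in WT epithelium. It was higher in stroma in 6 of 6 tumours, with no overlap in either genotype, by 1.20 ± 0.15 (SE, adjusted p = 0.00571). Psmb9 stood at 1.07, 0.67 and 1.27 in KO stroma and 0.41, 2.09 and -0.23 in WT stroma, against 0.31, -0.70 and -0.68 in KO epithelium and 0.21, -0.21 and -1.14 in WT epithelium, highest in WT stroma 2. Psmb8, like it encoded in the H2 complex, stood at 0.54, 0.65 and 0.60 in KO stroma and 0.97, 2.05 and -0.49 in WT stroma, against 0.19, -0.76 and -1.12 in KO epithelium and 0.66, -0.13 and -1.33 in WT epithelium, also highest in WT stroma 2. In 6 of 6 tumours the stroma was higher for both genes, by 1.25 ± 0.29 (SE, adjusted p = 0.0341) for Psmb9 and 1.14 ± 0.29 (SE, adjusted p = 0.043) for Psmb8. Tap2, a subunit of the peptide transporter, stood at 1.28, 0.63 and 0.56 in KO stroma and 1.46, 1.28 and 0.12 in WT stroma, against 0.47, 0.03 and 0.31 in KO epithelium and 1.21, 0.04 and -0.62 in WT epithelium, and was likewise higher in 6 of 6 tumours, by 0.65 ± 0.16 (SE, adjusted p = 0.0419).

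The general chaperones and trimming enzyme did not pass the threshold. Tapbp, which encodes tapasin and bridges the transporter to empty class I molecules, had a difference of 0.47 ± 0.19 (SE, adjusted p = 0.144). Those of the chaperones were 0.55 ± 0.22 (SE, adjusted p = 0.151) for Calr (calreticulin), 0.36 ± 0.17 (SE, adjusted p = 0.212) for Canx (calnexin) and 0.33 ± 0.24 (SE, adjusted p = 0.406) for Pdia3 (ERp57). Erap1, which trims peptides in the endoplasmic reticulum, lay between -0.19 and 0.41 on all 12 arrays, the smallest spread of the set, with a difference of -0.02 ± 0.17 (SE, adjusted p = 0.961). Nlrc5, the class I transactivator, stood at 0.34, 0.16 and 0.25 in KO stroma and -0.77, 1.31 and 0.20 in WT stroma, against -0.17, -0.45 and 0.21 in KO epithelium and -0.25, -0.76 and -0.55 in WT epithelium. On this probe WT stroma held both the lowest value (tumour 1) and the highest (tumour 2), which a second probe did not show, and its difference of 0.58 ± 0.31 (SE, adjusted p = 0.264) did not pass.

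**Figure D2:**
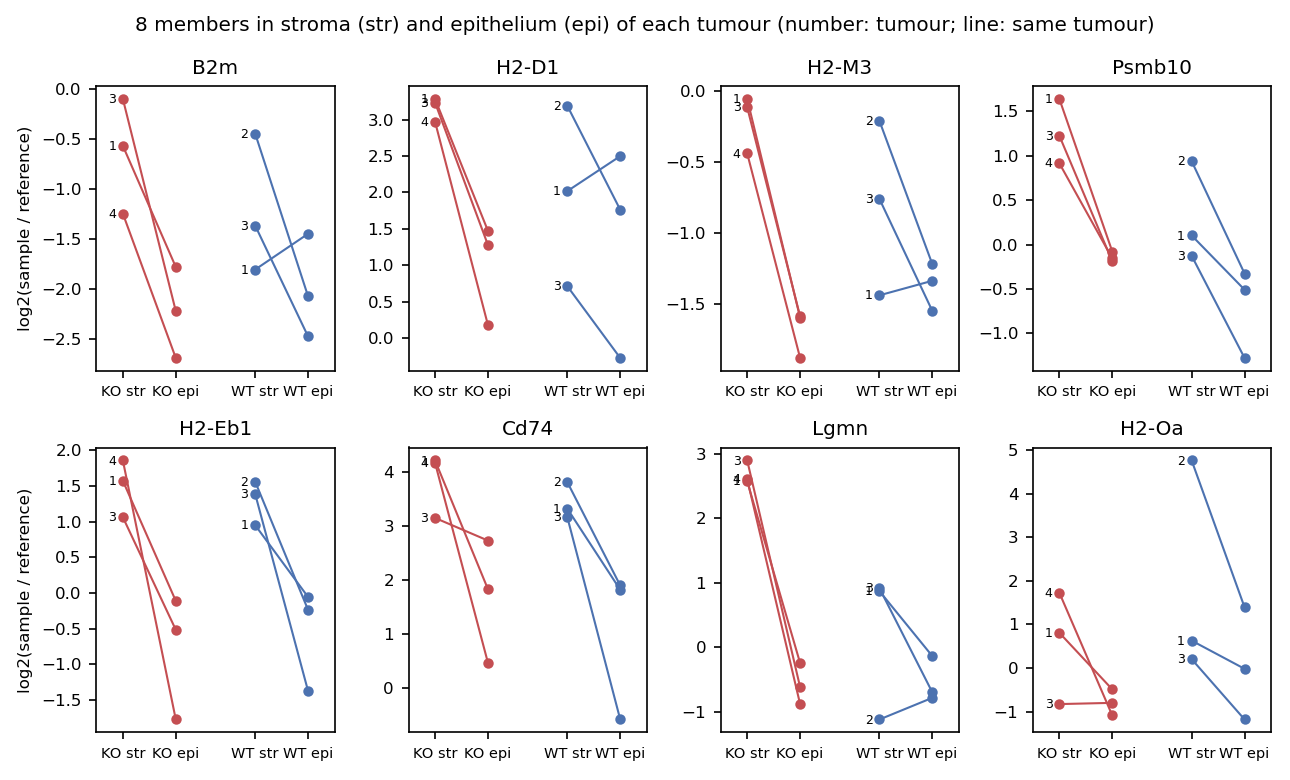
Log2(sample/reference) of 8 members in stroma and epithelium of each tumour, KO (red) left of WT (blue), with a line joining the compartments of a tumour. Lines fall from stroma to epithelium in all KO tumours but for H2-Oa in tumour 3, where they lie at -0.82 and -0.80, and in WT tumours they rise for B2m, H2-D1 and H2-M3 in tumour 1 and for Lgmn in tumour 2.

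Among the class II chains 2 of 3 were higher in stroma. H2-Eb1, the beta chain of I-E, stood at 1.57, 1.06 and 1.85 in KO stroma and 0.95, 1.56 and 1.39 in WT stroma, against -0.11, -0.51 and -1.77 in KO epithelium and -0.06, -0.24 and -1.37 in WT epithelium. The compartments did not overlap in either genotype and the stroma was higher in 6 of 6 tumours, by 2.07 ± 0.34 (SE, adjusted p = 0.012). H2-Ab1, the beta chain of I-A, stood at 5.37, 5.49 and 5.70 in KO stroma and 5.29, 5.86 and 5.74 in WT stroma, against 4.41, 4.97 and 3.21 in KO epithelium and 4.37, 4.97 and 3.32 in WT epithelium. Here too all 6 stromal samples lay above all 6 epithelial samples, by 1.37 ± 0.32 (SE, adjusted p = 0.0347). H2-Aa, which encodes the partner alpha chain of I-A, stood at 2.27, 1.89 and 3.08 in KO stroma and 3.31, 4.37 and 1.28 in WT stroma, against 1.55, 1.91 and 0.46 in KO epithelium and 2.14, 2.36 and 0.48 in WT epithelium. WT stroma held its highest value (tumour 2) and its lowest stromal value (tumour 3), and the difference of 1.22 ± 0.35 (SE, adjusted p = 0.0606) did not pass. FVB carries the q haplotype of the H2 complex, known to make no I-E protein, so the RNA of H2-Eb1 says nothing about I-E at the surface.

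Of the 4 peptide editor genes tested, both chains of H2-DM were higher in stroma. H2-DMb1, the beta chain of the editor H2-DM, stood at 4.71, 4.62 and 5.31 in KO stroma and 3.92, 3.93 and 4.07 in WT stroma, against 2.88, 3.46 and 2.36 in KO epithelium and 2.37, 3.70 and 1.56 in WT epithelium, with no overlap in either genotype. It was higher in stroma in 6 of 6 tumours, by 1.71 ± 0.34 (SE, adjusted p = 0.0225). H2-DMa, the alpha chain of the same editor, stood at 1.46, 1.29 and 1.03 in KO stroma and 1.04, 1.89 and 0.94 in WT stroma, against 0.21, 0.63 and -0.31 in KO epithelium and 1.10, 0.31 and 0.28 in WT epithelium, with stroma and epithelium level in WT tumour 1. It was higher by 0.90 ± 0.22 (SE, adjusted p = 0.0408), or by 1.62 with Agilent's processed signals (adjusted p = 0.0586). H2-O is a brake on H2-DM made mainly by B cells, and neither of its chains passed on the probe tested. Its alpha chain H2-Oa stood at 0.81, -0.82 and 1.73 in KO stroma and 0.63, 4.76 and 0.21 in WT stroma, against -0.49, -0.80 and -1.09 in KO epithelium and -0.02, 1.39 and -1.18 in WT epithelium. The highest value was in WT stroma 2 and the highest of the epithelial values in the same tumour, the samples in which the B cell marker Cd79b was also highest among stromal (2.12) and among epithelial samples (-2.19), and the part of B cells in its difference of 1.58 ± 0.46 (SE, adjusted p = 0.0624) was not tested. Without that tumour the difference was 1.19. The tested probe of H2-Ob, the beta chain, had a difference of -0.17 ± 0.29 (SE, adjusted p = 0.746), with values from -1.44 to 2.04. A dimmer probe of H2-Ob, left out of the tests, disagreed with it and was highest in WT stroma 2, at 3.02.

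The invariant chain and the endosomal enzymes held 3 of the 5 largest differences of the set. Cd74, the invariant chain, stood at 4.22, 3.15 and 4.18 in KO stroma and 3.32, 3.82 and 3.17 in WT stroma, against 1.83, 2.73 and 0.46 in KO epithelium and 1.82, 1.90 and -0.59 in WT epithelium. Every stromal sample lay above every epithelial sample, and it was higher by 2.28 ± 0.47 (SE, adjusted p = 0.024), or 4.86-fold. Ctss, cathepsin S, which makes the last cut of the invariant chain, stood at 3.06, 1.75 and 1.74 in KO stroma and 0.84, 0.92 and 1.37 in WT stroma, against 0.26, 0.40 and -0.53 in KO epithelium and 0.68, -0.51 and -0.34 in WT epithelium. Stroma was higher in 6 of 6 tumours, by 2.79 in KO tumour 1 and by 0.17 in WT tumour 1 at the extremes, and on average by 1.62 ± 0.26 (SE, adjusted p = 0.0119). Lgmn, legumain, an asparagine-specific protease that opens antigens and the invariant chain, stood at 2.57, 2.90 and 2.61 in KO stroma and 0.87, -1.12 and 0.91 in WT stroma, against -0.25, -0.62 and -0.88 in KO epithelium and -0.14, -0.79 and -0.70 in WT epithelium. WT stroma 2 was the lowest of the 12 samples and KO stroma the highest 3, with a mean difference of 2.02 ± 0.26 (SE, adjusted p = 0.00631). Ifi30, a thiol reductase that unfolds antigens in endosomes, stood at 1.32, 0.79 and 0.67 in KO stroma and 0.42, 0.97 and -0.45 in WT stroma, against 0.38, -0.37 and -1.34 in KO epithelium and 0.95, -0.44 and -1.01 in WT epithelium, and its difference of 0.93 ± 0.27 (SE, adjusted p = 0.0645) did not pass.

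In 9 of the 30 members stroma was higher in all 6 tumours, where 8.08% of all genes were. They were the 3 immunoproteasome subunits and Tap2 of class I, and Cd74, Ctss, H2-Ab1, H2-DMb1 and H2-Eb1 of class II. The tumours differed in how far the classes moved. The median stroma minus epithelium over class I members was 0.76, 1.30 and 1.38 in KO tumours 1, 3 and 4 and -0.10, 1.26 and 0.91 in WT tumours 1, 2 and 3. For class II it was 1.68, 0.65 and 2.62 in KO tumours and 0.92, 1.43 and 1.62 in WT tumours. In WT tumour 1, 8 of 19 class I members were higher in stroma. Class II exceeded class I in 5 of 6 tumours, all but KO tumour 3.

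The count of 18 depended on single tumours. It was 7, 7 and 5 without KO tumour 1, 3 or 4, and 16, 8 and 5 without WT tumour 1, 2 or 3. Ctss, H2-Eb1, H2-M3, Lgmn and Psmb10 passed whichever tumour was left out. With Agilent's processed signals 9 members passed, and without the tumour block 10.

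Markers of other cell types moved with this comparison. Of 12 macrophage markers kept of 13, 10 were higher in stroma and 1, Cd14, lower, with a summed Cy3 signal of 207631 to 253308 in KO stroma and 50049 to 101720 in WT stroma, against 32838 to 46973 in KO epithelium and 29891 to 77824 in WT epithelium. Of 10 fibroblast markers 8 were higher, with a sum of 637309 to 972078 in KO stroma and 127228 to 437046 in WT stroma, against 7254 to 85603 in KO epithelium and 14198 to 305594 in WT epithelium. In WT tumour 2 alone the fibroblast median was higher in epithelium (1.39) than in stroma (-0.17). Of 4 leukocyte markers kept of 5, 3 were higher, with a sum of 8657 to 18534 in KO stroma and 5344 to 62552 in WT stroma, against 2103 to 2868 in KO epithelium and 1524 to 4039 in WT epithelium. Of 8 dendritic cell markers 2 were higher, of 10 T and NK cell markers 1, and of 7 endothelial markers kept of 8, 3, where 8.41% of all genes were. The dendritic cell sum was 2518 to 3587 in KO stroma and 2055 to 14732 in WT stroma. It was 1362 to 2038 in KO epithelium and 1757 to 28363 in WT epithelium. The endothelial sum was 10131 to 22984 in KO stroma and 5168 to 7811 in WT stroma. It was 3170 to 3650 in KO epithelium and 5596 to 114253 in WT epithelium. Both sums were thus highest in a WT epithelium sample. Of 9 epithelial markers 6 were lower. Of the markers listed for these cell types, Blk, Cd53, Cdh1 (epithelial) and Tek (endothelial) were above background on no array, and Cd68 had no probe. The part of these cells in the members' differences was not tested.

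**Figure D3:**
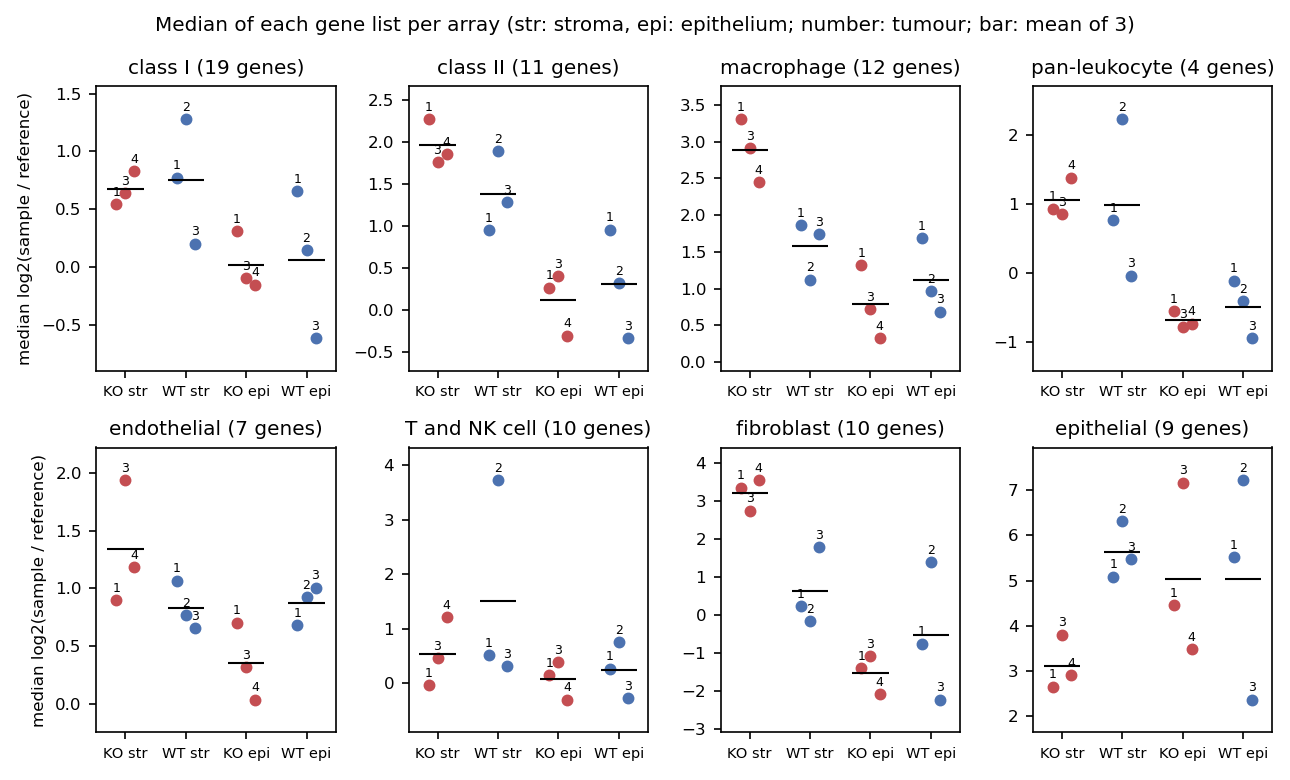
Median log2(sample/reference) of each gene list per array (points, numbered by tumour) with the mean of 3 arrays (bar), for KO stroma, WT stroma, KO epithelium and WT epithelium. The bars of class II and of the macrophage markers are highest in KO stroma, the T and NK cell median is highest in WT stroma 2, and the epithelial median of WT stroma lies at the level of the epithelial groups.

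Within KO tumours the stroma was higher than the epithelium for 12 of 30 members and lower for 0, where 10.2% of all genes were higher and 10% lower. The median difference was 1.16 for class I (7 of 19 called) and 1.37 for class II (5 of 11), against -0.04 over all genes. The 3 stromal values lay above the 3 epithelial values for 22 of the 30 members, against 17.7% of all genes. Lgmn had the largest difference, 3.28 ± 0.37 (SE, adjusted p = 0.00328), or 9.68-fold. Among those called it was followed by H2-Eb1 at 2.29 ± 0.48 (SE, adjusted p = 0.0199), H2-D1 at 2.18 ± 0.38 (SE, adjusted p = 0.0119), Ctss at 2.14 ± 0.37 (SE, adjusted p = 0.0118) and H2-Q7 at 2.06 ± 0.46 (SE, adjusted p = 0.0237). Ifi30 passed here, at 1.37 ± 0.38 (SE, adjusted p = 0.0484), while Cd74, with a wider error, did not, at 2.17 ± 0.66 (SE, adjusted p = 0.0614). The others called were B2m, H2-K1, H2-M3, H2-Q6, Psmb10 and H2-DMb1, with differences of 1.18 (H2-K1) to 1.98 (H2-DMb1). The count was 4, 5 and 3 without KO tumour 1, 3 or 4, and H2-M3, Lgmn and Psmb10 passed each time.

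Within WT tumours 0 of 30 members passed, and 1 of all genes (0.00753%) did. At an unadjusted p under 0.05 there were 15 members, and 1171 of the 13275 genes. The median difference was 0.74 for class I and 1.33 for class II, against 0.02 over all genes. Stromal and epithelial values did not overlap for 6 members, Cd74, H2-Eb1, H2-Ab1, H2-DMb1, Ctss and Psmb10, all higher in stroma, against 6.37% of all genes. Cd74 had a difference of 2.39 ± 0.66 (SE, adjusted p = 0.427) and H2-Eb1 of 1.85 ± 0.48 (SE, adjusted p = 0.419). The epithelial markers, of which 6 of 9 were lower in stroma in KO tumours, had a median difference of -0.02 in WT tumours with none called, and the part of epithelial RNA in WT stroma was not tested.

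**Figure D4:**
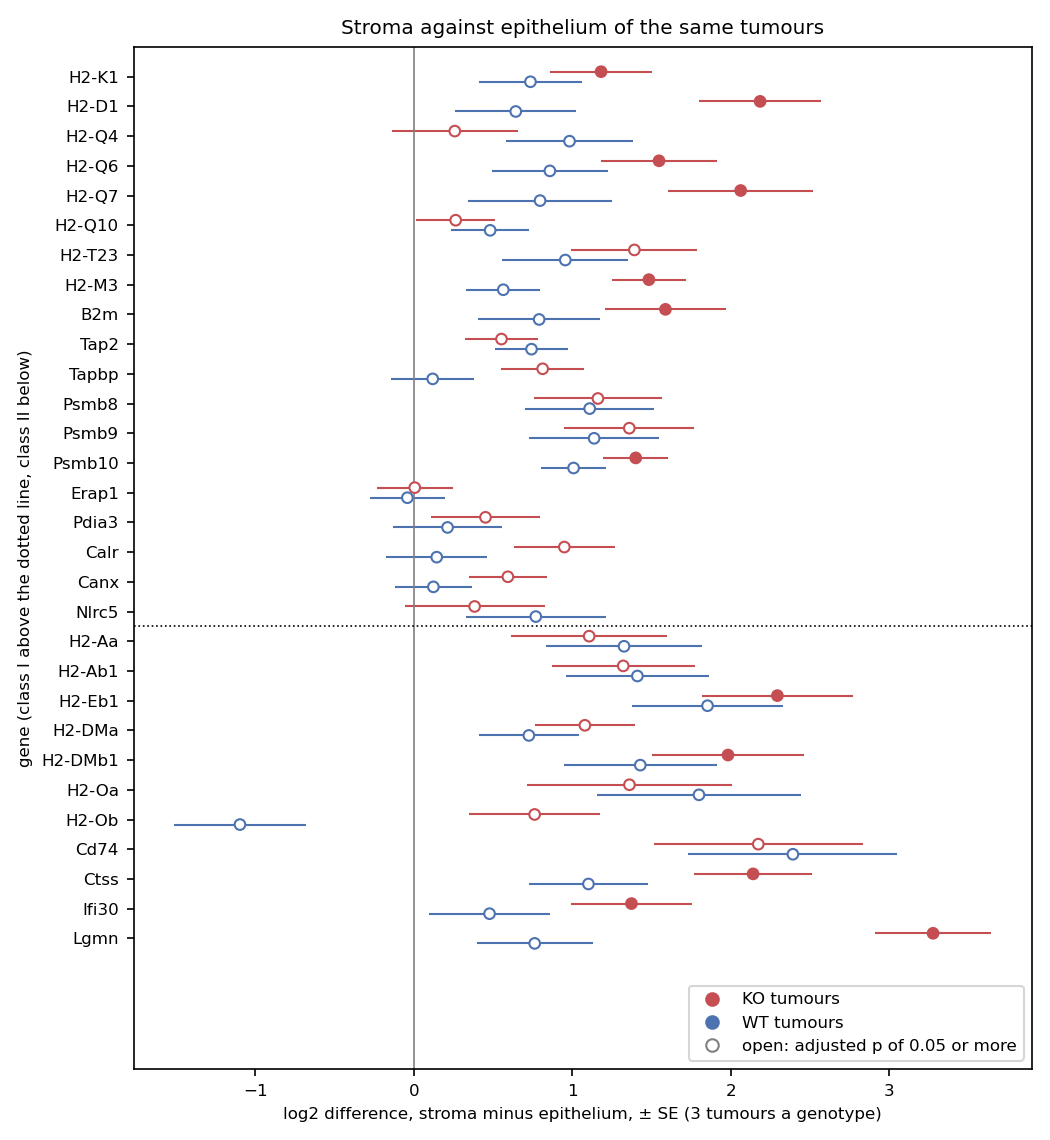
Log2 difference of stroma minus epithelium with its standard error for the 30 tested members, in KO (red, upper point) and WT tumours (blue, lower point), filled where the adjusted p is under 0.05. All 30 points of KO tumours and 28 of those of WT tumours lie right of 0, the 12 filled ones are from KO tumours, and H2-Ob lies left of 0 in WT tumours.

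The second question was whether the members differ between KO and WT tumours within a compartment. In stroma 1 of the 30 members was higher in KO and 0 lower (limma on the group means of all 12 arrays), where 3.53% of all genes were higher and 2.95% lower, so the members' share was no larger than that of all genes. The member was Lgmn, at 2.57, 2.90 and 2.61 in KO stroma, against 0.87, -1.12 and 0.91 in WT stroma. The groups did not overlap, and WT stroma 2, the sample with high lymphocyte markers, was the lowest. KO stroma averaged 2.69 ± 0.18 and WT stroma 0.22 ± 1.16 (SD, n = 3 each), a difference of 2.47 ± 0.47 (SE, adjusted p = 0.0169), or 5.55-fold. Without WT stroma 2 the difference was 1.80 (adjusted p = 0.015), while with the 6 stromal arrays fitted alone its adjusted p was 0.0703. The reference channel of the Lgmn probe differed by -0.17 between the same arrays.

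Values of 4 members did not overlap between KO and WT stroma, all higher in KO, against 13.1% of all genes. Besides Lgmn they were Ctss, at 1.14 ± 0.43, H2-DMb1, at 0.91 ± 0.47, and Canx, at 0.64 ± 0.23 (SE), with adjusted p of 0.146, 0.301 and 0.121 by limma. The other class II members had no common direction. Cd74 differed by 0.41 ± 0.70 (SE, adjusted p = 0.788), while H2-Aa, at -0.57 ± 0.76 (SE, adjusted p = 0.721), and H2-Oa, at -1.30 ± 1.12 (SE, adjusted p = 0.56), had lower means in KO, both with their highest value in WT stroma 2. Without that sample the difference was 0.12 for H2-Aa and 0.15 for H2-Oa. The chains H2-Ab1 and H2-Eb1 differed by -0.11 ± 0.47 and 0.20 ± 0.45 (SE). Among class I members Psmb10 had the smallest p, at 0.95 ± 0.32 (SE, adjusted p = 0.107). H2-D1 had the largest class I difference, 1.19 ± 0.73 (SE, adjusted p = 0.394), but KO stroma at 2.97 to 3.28 overlapped WT stroma at 0.71 to 3.19. B2m was at 0.57 ± 0.42 (SE, adjusted p = 0.493) and H2-K1 at 0.86 ± 0.42 (SE, adjusted p = 0.269).

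The median difference between KO and WT stroma was 0.34 for class I and 0.41 for class II, against -0.01 over all genes. Beside it, 3 of 12 macrophage markers were higher in KO stroma and 1, Cd14, lower, and their summed signals (207631 to 253308 in KO stroma, 50049 to 101720 in WT stroma) did not overlap. Of the fibroblast markers 3 of 10 were higher, and of the epithelial markers 5 of 9 lower, where 3.53% of all genes were higher and 2.95% lower. The part of these markers' cells in the differences of the members was not tested.

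In epithelium 0 of 30 members passed between KO and WT, by limma, and 0 had an unadjusted p under 0.05, where 1 of all genes (0.00753%) passed and 1070 of 13275 had such a p. The median difference was -0.15 for class I and -0.24 for class II, against 0.03 over all genes. B2m differed by -0.23 ± 0.42 (SE, adjusted p = 0.925), H2-D1 by -0.35 ± 0.73 (SE, adjusted p = 0.932) and Cd74 by 0.63 ± 0.70 (SE, adjusted p = 0.85). The widest was H2-Ob at -1.13 ± 0.63 (SE, adjusted p = 0.666), with WT epithelium 3 at 2.04 above the other 5 epithelial values of -1.44 to 0.01. Without that array, the one with most nonuniform spots, it was -0.33. The dimmer H2-Ob probe, near background and left out of the tests, differed by -0.18 on all epithelial arrays. Psmb10 was the only member with all KO values (-0.19 to -0.08) above all WT values (-1.28 to -0.33), at 0.56 ± 0.32 (SE, adjusted p = 0.672), and H2-M3 the only one with all KO values below. Over all genes 9.6% had all KO values above and 4.47% below, so 1 of 30 members each way was no more than the share of all genes.

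**Figure D5:**
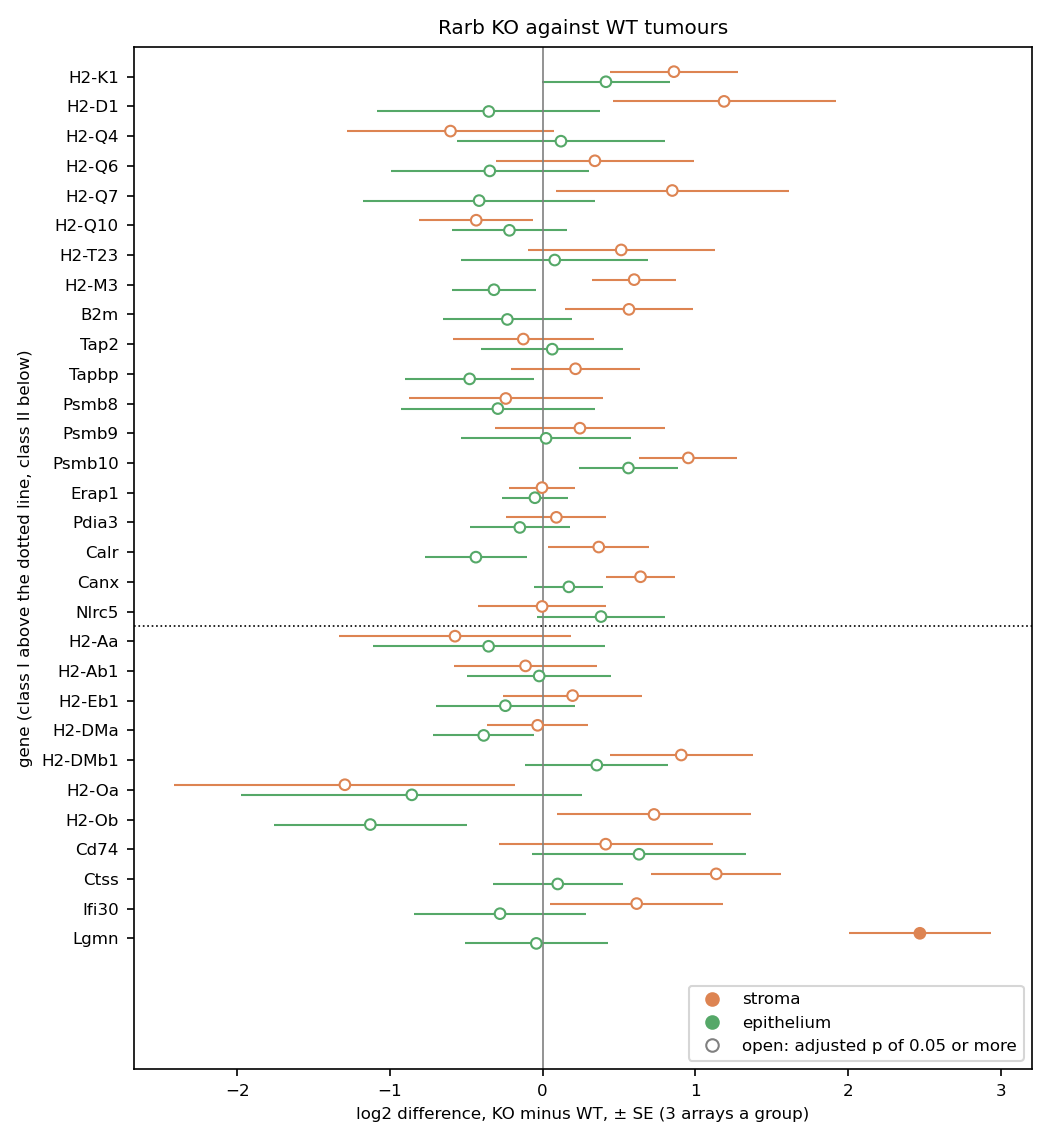
Log2 difference of KO minus WT with its standard error for the 30 tested members, in stroma (orange, upper point) and epithelium (green, lower point), filled where the adjusted p is under 0.05. Lgmn in stroma, at 2.47, is the single filled point.

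The last comparison asked whether the KO effect differs between stroma and epithelium. No member passed, and 0 of all genes (0%) did, by limma with the tumour as a block, while 4 members and 2408 of 13275 genes had an unadjusted p under 0.05. The 4 were Lgmn, at 2.51 ± 0.52 (SE, adjusted p = 0.0984), H2-Ob, at 1.86 ± 0.58 (SE, adjusted p = 0.188), H2-D1, at 1.54 ± 0.54 (SE, adjusted p = 0.214), and H2-M3, at 0.92 ± 0.33 (SE, adjusted p = 0.221). So although Lgmn passed between KO and WT in stroma and not in epithelium, the difference of these effects did not pass. For H2-Ob, whose probes disagreed, WT epithelium 3 stood at 2.04 on the tested probe. Without that array its KO effect in epithelium was -0.33 and not -1.13. The medians were 0.44 for class I, 0.44 for class II and -0.06 over all genes.

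The other 5 members could not be tested. H2-T22 has no probe here. Tap1, the other subunit of the peptide transporter, H2-DMb2, a second beta chain of H2-DM, and Rfx5, a subunit of the RFX complex that binds the X box, were above background on no array. Ciita, the class II transactivator, was above background on WT epithelium 3 alone, at 0.44. It lay between -0.50 and 0.36 on the other 11 arrays, ratios at background that give neither a level nor a bound. The second kept probes of H2-K1 and H2-Ab1 had a mean stroma minus epithelium of 1.09 and 1.02, in the direction of the first. That of Nlrc5 differed from the first: its mean difference was 0.22, with WT stroma 1 at 0.27 and WT stroma 2 at 0.33, where the first had -0.77 and 1.31. The 2 probes of H2-Ob disagreed: the dimmer, left out of the tests, was above background on 2 arrays and highest in WT stroma 2 (3.02) and WT epithelium 2 (1.03), against -0.22 to 0.50 elsewhere, whereas the brighter was highest in WT epithelium 3.

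Further genes of the pathway were counted in the same way. Of 25 genes that assist presentation 18 were tested, among them lysosomal cathepsins, proteasome activators and, of the NF-Y subunits, Nfyc alone. Their median stroma minus epithelium over the 6 tumours was 0.15. Of the 18, 3 were higher in stroma and 0 lower, where 8.41% of all genes were higher and 6.7% lower. They were the protease cathepsin B, Ctsb, at 1.49 ± 0.21 (SE, adjusted p = 0.00811), the chaperone BiP, Hspa5, at 0.93 ± 0.17 (SE, adjusted p = 0.0167), and cathepsin L, Ctsl, at 0.84 ± 0.22 (SE, adjusted p = 0.0486). Ctsb, at 1.71 ± 0.35 (SE, adjusted p = 0.0207), was also the 1 gene of this list higher in KO than in WT stroma, where 3.53% of all genes were. It stood at 2.04, 2.02 and 1.66 in KO stroma, against 0.49, -0.72 and 0.82 in WT stroma, with no overlap.

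Of 11 tested genes of interferon gamma signalling, 3 were higher in stroma over the 6 tumours and 0 lower, with a median of 0.58, where 8.41% of all genes were higher and 6.7% lower. They were the receptor chain Ifngr1, at 1.25 ± 0.15 (SE, adjusted p = 0.00571), the transcription factor Irf8, known from macrophages and dendritic cells, at 2.05 ± 0.32 (SE, adjusted p = 0.0103), and the feedback inhibitor Socs1, at 1.09 ± 0.25 (SE, adjusted p = 0.0331). Ifngr1 was also higher in KO than in WT stroma, as 3.53% of all genes were, at 3.13, 3.05 and 2.97 in KO stroma, against 1.32, 1.33 and 1.61 in WT stroma, by 1.63 ± 0.21 (SE, adjusted p = 0.00575). Ifng itself was above background on no array. Of 5 tested co-stimulatory genes of 7, Cd86 and Cd40, which antigen-presenting cells use to activate and to receive help from T cells, were higher in stroma, at 1.94 ± 0.26 (SE, adjusted p = 0.00715) and 1.28 ± 0.20 (SE, adjusted p = 0.0115). Neither passed between KO and WT stroma, with 1.11 ± 0.40 (SE, adjusted p = 0.13) for Cd86. Cd274 and Pdcd1lg2, the ligands of the checkpoint receptor PD-1, were above background on no array.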

How the data were processed

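Laser-captured epithelium and stroma of 6 tumours were measured on 12 Agilent 2-colour arrays, with RNA extracted with guanidinium isothiocyanate and amplified, per the labels' protocols. Per the labels, Cy3 carried the sample and Cy5 the Universal Mouse Reference RNA throughout, so no dyes were swapped. The deposited scanner files hold the median intensity of each spot and its local background, and Agilent's processed intensity, from Feature Extraction 10.7.3.1, per the file headers. Their log10 ratio of red over green, per the file headers, was not used. The authors' value table holds log2 ratios, which run reference over sample for epithelial arrays (r of -0.89 or lower with each scanner file) and are unrelated to the scanner files for stromal arrays, so it served as an alternative for epithelium only.

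In limma 3.58.1 (R 4.3.3), median signals were background-corrected (normexp, offset 50) and loess-normalized within arrays with control spots at weight 0, and the sign was turned to sample over reference. Spots of one probe were averaged. The single Cy3 and Cy5 signals were taken from these ratios after quantile normalization of the average intensities between arrays. Values of Cy3 alone, summed signals included, thus still depend on Cy5 through the normalization. Probes were named by unversioned accession through a RefSeq table of GRCm38.p6 (27235 of 55681 probes). Probes were tested if their Cy3 signal was well above background on 3 or more of the 12 arrays, and each gene was represented by its brightest such probe, which left 13275 genes. More than 1 probe passed for 2586 of them. KO and WT were compared by fitting 4 group means to the 12 arrays, and the compartments with the tumour as a fixed block. Titles that share genotype and number give the pairs, and deviations of paired samples correlated at 0.09 to 0.45. P-values were adjusted over all genes (Benjamini-Hochberg, 0.05). The fits were tested on simulated data. One marker gene, with the counts of its list, is not reported here.

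All 35 members were named, with every list in full by count and with genes past the threshold singled out. The members and lists were chosen with earlier results of these data known, so no test over a list was made. The alternatives were Agilent's processed signals, no background subtraction, scale normalization, Cy3 alone, other probe filters, the mean of a gene's probes, array weights, other uses of the tumour block, 1 compartment alone and leaving out each sample or tumour.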

Additional observations from a re-analysis of the deposited data

Results flagged for a closer look

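Signals in probes left out by the filter on dim probes were looked at again for 2 members. The dim probe of H2-Ob, the beta chain of the B cell protein H2-O, stood at 3.02 (log2 sample over reference) in WT stroma 2, against -0.22 to 1.03 on the other 11 arrays. WT stroma 2, where lymphocyte markers were high, was thus the highest for this probe and for H2-Oa, and not for the brighter H2-Ob probe. The probe of Ciita, the class II transactivator, passed background on WT epithelium 3 alone, where it stood at 0.44, against -0.50 to 0.36 on the other 11 arrays.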

How the results depend on the processing

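Besides the reported processing, 31 alternatives were run, and no called difference changed its direction. Of the member counts in each direction and the class II minus class I medians, 266 stayed within 1.5 times or the spread between replicates and 13 did not. Counts of 0 that stayed 0 were scored as unchanged. As reported, 0 members were lower in every comparison, so the 266 overstate how stable the other counts were. With the 6 stroma arrays alone, 0 members were higher in KO than in WT stroma, and 292 genes in all passed against 859. For stroma over epithelium in 6 tumours, 9 members passed with Agilent's processed signals and 10 with no replicate block, and the count ranged from 5 to 16 when a tumour was left out. In KO tumours that count ranged from 3 to 15, and the class II minus class I median, 0.21 as reported, was 0.99 with Agilent's processed signals and 0.21 to 0.997 when a tumour was left out. The same left-out tumours moved that difference of medians over 6 tumours, 0.62 as reported, between 0.22 and 0.90, and in WT tumours, 0.58 as reported, between 0.20 and 0.62. Fewer arrays enter a fit that leaves some out, and the cause of the changes under any alternative was not tested. The numbers pair the tumours, and the tumour as a random replicate block, with a correlation of 0.23, changed no member count of KO against WT by more than 1.5 times. Over all genes, Cy3 alone gave 3316 calls for stroma over epithelium, against 2005, and 3975 in KO tumours, against 2683; leaving out 1 sample or tumour gave 174 to 883 calls for KO against WT stroma, 930 to 1384 for stroma over epithelium and 1054 to 2724 in KO tumours. The difference of the KO effects had 0 calls as reported and up to 150 under alternatives, none a member. Signal near background limits Erap1, H2-Q10, H2-Aa and the tested probe of Nlrc5, which were above background on 9 or 10 arrays. H2-DMa, above background on 11 arrays, was about as dim as H2-Aa. Over the 6 tumours it passed in 6 of 14 alternatives, with differences of 0.69 to 1.62. All members rest on 3 arrays a group.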
